A study of Mus musculus with 48 samples.

Results

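The genes *Tgfb1*, *Tgfb2*, *Tgfb3*, *Tgfbr1*, *Tgfbr2*, *Tgfbr3*, *Tgfbi*, *Ltbp1* and *Smad7* were followed across organs and cell types in mice with collagen-induced arthritis (CIA), an immune-mediated model of joint inflammation. These 9 ligand, receptor and response genes of transforming growth factor beta (TGF-beta) were chosen by name from the 34586 genes of the count table, and all 9 were found in it. Single-cell RNA was profiled with Seq-Well, a microwell method that counts transcripts by unique molecular identifiers (UMIs) at the 3′ end. All 10 mice were males of the strain DBA1/J. The 6 CIA mice had received 100 µg of bovine collagen II in Complete Freund's Adjuvant by an intradermal injection near the tail base, and a booster in incomplete Freund's adjuvant on day 20, whereas the 4 healthy mice had received PBS alone. Healthy mouse H3 and CIA mice S1, S2 and S3 carry the experiment name 2CIA, and healthy mice H4, H6 and H7 and CIA mice S5, S6 and S8 the experiment name CIA. The arthritis score was 8 in S1, S2 and S3, between 4 and 5 in S5, between 3 and 4 in S6, and between 2 and 3 in S8, so that among CIA mice the score and the experiment cannot be told apart. Joint was sampled from 3 healthy and 5 CIA mice, and lung, muscle, skin and spleen from 4 healthy and 6 CIA mice each, giving 48 samples. The mouse was the replicate throughout. The study reported macroscopic signs of disease in joints only, and its histology, done in other mice, showed inflammation in joints and not in muscle. The central comparisons were therefore CIA against healthy mice within each organ, and joint against muscle.

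The authors' cell-type labels were used for 12096 of 13240 cells, with a median of 675 UMIs per labelled cell. Summed over a mouse, joint held between 62796 and 1176647 UMIs, muscle between 33628 and 1645734, lung between 17748 and 126321, skin between 26984 and 238155, and spleen between 95313 and 862294. The 9 genes together gave 4324 UMIs in labelled cells, between 85 for *Tgfb3* and 1160 for *Smad7*, so that many values rest on a few molecules. The label check found that fibroblasts, macrophages, monocytes, granulocytes, endothelial cells, B cells, NK cells, erythrocytes and basal III cells were each highest for their own marker genes, while T cells and neutrophils came second for theirs. Dendritic cells ranked lower for theirs, at 45.9 CPM (UMIs per 1000000 UMIs of the same cells) against 384 in monocytes and 138 in macrophages. Endothelial cells also ranked first for smooth muscle and pericyte markers, at 1259 CPM beside 1279 for their own. For fibroblast markers they came second, at 3643 CPM against 27183 in fibroblasts. Levels under that label therefore cannot be assigned to endothelial cells alone. The label "myocytes" went against its markers, since *Acta1*, *Ckm* and 4 other muscle genes summed to 31.7 CPM there, the lowest of 13 labels, and B-cell markers to 2376. Of the 1625 cells so labelled, 1492 belonged to S6, a CIA mouse, in its muscle, where they were 75.0% of the cells, and they are called cells labelled myocytes below. Some 59 cell barcodes occurred in more than 1 library, and the 105 labelled cells concerned held 28 of the 4324 UMIs.

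TGF-beta is made as a latent complex, which latent TGF-beta binding proteins such as *Ltbp1* tether to the extracellular matrix until the ligand is released. The ligands encoded by *Tgfb1*, *Tgfb2* and *Tgfb3* bind the kinase receptors *Tgfbr2* and *Tgfbr1*, with *Tgfbr3* (betaglycan) as a co-receptor, and the receptors signal through SMAD proteins. *Smad7* is an inhibitory SMAD that the pathway itself induces, and *Tgfbi* encodes a secreted matrix protein named for its induction by TGF-beta. In joints, the pathway is known both for restraining leukocytes and for driving matrix production by fibroblasts.

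The 9 genes differed first by cell type. Fibroblasts had the highest level, as CPM pooled over all mice and organs, for 6 of the 9 genes, namely *Tgfb2*, *Tgfb3*, *Tgfbr2*, *Tgfbr3*, *Tgfbi* and *Ltbp1*, and for 5 of these endothelial cells came second. In fibroblasts *Ltbp1* reached 82.2 CPM and *Tgfbr3* 102.2, against 30.1 and 60.3 in endothelial cells. Both were at or close to 0 in leukocytes, *Ltbp1* being at 0 in B cells, dendritic cells, granulocytes, monocytes, NK cells and neutrophils. These are pooled levels, and the ranges over single samples overlapped between each label and the next in the order for all 9 genes. The *Ltbp1* locus overlaps *Gm6276* on the same strand. *Gm6276* had 243 UMIs, more than the 150 of *Ltbp1*, and reads of the pair may not be told apart.

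**Figure D1:**
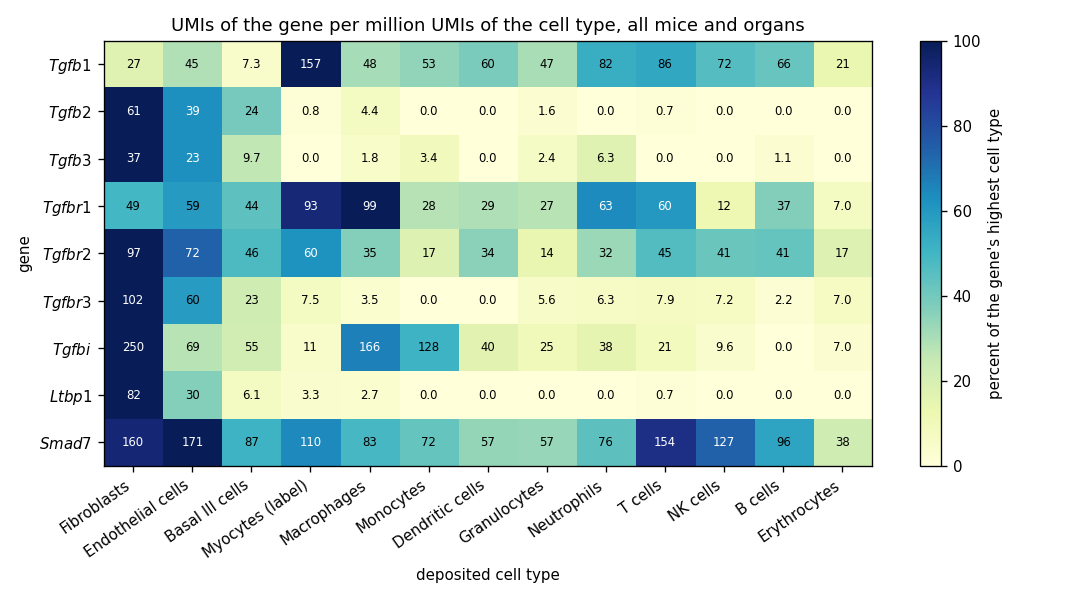
Levels of the 9 TGF-beta genes (rows) over the 13 deposited cell-type labels (columns), pooled over all organs and mice; numbers are CPM and the colour is the percentage of the gene's highest label. The fibroblast column is at the full colour for *Tgfb2*, *Tgfb3*, *Tgfbr2*, *Tgfbr3*, *Tgfbi* and *Ltbp1*, while *Tgfb1* is highest in cells labelled myocytes, *Tgfbr1* in macrophages and *Smad7* in endothelial cells.

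Among the ligands, *Tgfb2* and *Tgfb3* were highest in fibroblasts, while *Tgfb1* was higher under several leukocyte labels than in fibroblasts. *Tgfb2* stood at 61.5 CPM in fibroblasts, 38.5 in endothelial cells and 24.2 in basal III cells (keratinocytes of the skin), and at 4.42 or less under every other label. *Tgfb3* had 37.3, 23.4 and 9.69 in the same 3 types. *Tgfb1*, the ligand best known from leukocytes, stood at 26.9 in fibroblasts and 7.27 in basal III cells, below its 86.1 in T cells, 82.4 in neutrophils, 71.6 in NK cells and 65.5 in B cells. Its highest level, 156.7, was in cells labelled myocytes, and its 188 UMIs there were 53.1% of all *Tgfb1* UMIs in muscle. Since most of these cells came from S6, that level is mainly the level of 1 mouse.

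Among the receptors, *Tgfbr1* and *Tgfbr2* had UMIs under all 13 labels. *Tgfbr1* was highest in macrophages (99.1 CPM), followed by cells labelled myocytes (92.5) and neutrophils (63.3). *Tgfbr2* was highest in fibroblasts (97.4) and endothelial cells (72.0), and lowest in granulocytes (13.7). The co-receptor *Tgfbr3* fell from 23.0 in basal III cells to 7.95 in T cells and 3.54 in macrophages. Hence *Tgfbr3* was the most restricted of the receptors in these cells, with 60.9% of its UMIs in fibroblasts, compared with 27.9% for *Tgfbr2* and 12.6% for *Tgfbr1*.

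Of the response genes, *Tgfbi* combined a stromal and a myeloid pattern, at 250.0 CPM in fibroblasts, 166.3 in macrophages and 127.5 in monocytes. In B cells it had 0 of 900140 UMIs, which allows at most 3.33 CPM at this depth, for counting error only. *Smad7* was the most evenly spread member, ranging from 38.5 in erythrocytes to 170.7 in endothelial cells and 160.2 in fibroblasts, and it was the only one of the 9 genes with UMIs in all 48 samples.

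The source of the UMIs also differed by organ. In joint, fibroblasts gave 30.5% of all UMIs but 87.0% of the *Ltbp1*, 86.4% of the *Tgfb3*, 79.5% of the *Tgfb2*, 75.2% of the *Tgfbr3* and 55.8% of the *Tgfbi* UMIs. In spleen, monocytes gave 19.0% of all UMIs and 70.4% of the *Tgfbi* UMIs, and no UMI of *Tgfb2* or *Ltbp1* was counted in that organ. In lung, macrophages held 84.2% of all UMIs, and 91.7% of *Tgfbi*, 91.0% of *Tgfbr1* and 90.0% of *Tgfbr2* UMIs. Sums over an organ therefore follow its cell composition, and in such sums fewer cells of a type and less RNA per cell cannot be told apart.

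Genes with the most similar pattern over the 28 cell types of an organ that held 50 cells or more were found for the 6 members with at least 200 UMIs, among 6668 genes. *Tgfbr3* was closest to *Prss23* (Pearson r = 0.94), *Prrx1* (0.93) and *Mfap4* (0.92). *Tgfbi* was closest to *Metrnl* (0.87), *Lrp1* (0.87) and *App* (0.86), *Tgfbr1* to *Skil* (0.87), *Tgfbr2* to *Zbtb20* (0.81), *Smad7* to *F2r* (0.81), and *Tgfb1* to *H2-Q10* (0.82). *Prrx1* is a mesenchymal transcription factor, and *Skil* encodes SnoN, a negative regulator of SMAD signalling. These coefficients describe pairs that share libraries and depth, and no test was attached to them.

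CIA was compared with healthy mice in each of the 5 organs over all labelled cells, and in 11 cell types of an organ that had at least 3 healthy and 3 CIA mice. In 14 of these 16 comparisons none of the 9 genes passed an adjusted p of 0.05 in the quasi-likelihood test of edgeR, adjusted by Benjamini-Hochberg, and the remaining 2 called a single member, *Tgfbi*, in spleen. DESeq2 called 0 members in all 25 comparisons, those of joint with muscle included, where a gene without an adjusted p counted as not called. Over all genes DESeq2 called 10 in muscle and 0 in skin basal III cells, where edgeR called 40 and 10. In the macrophage interaction of joint and muscle it called 20 against 11. Of 128 tests of a member in the 16 comparisons, 7 (5.47%) had an unadjusted p under 0.05, beside 2.93 to 6.71% of all tested genes, so this count lay at the background.

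In joint, 0 of the 9 members were called, where 0.129% of all tested genes were called, and 0 had an unadjusted p under 0.05. Only *Tgfbr3*, *Tgfbi* and *Smad7* passed the filter on low counts. Of the 9 fold changes, 5 were above 0, with a median of 0.145 on the log2 scale, compared with 0.023 over the filtered genes. The member medians, here and below, include genes that failed the filter, whereas the medians beside them do not. The members' levels in joint are given here in full because joint was the inflamed organ.

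*Tgfbr3* was the member whose joint levels separated the groups. In healthy joints it stood at 77.9 (H3), 107 (H4) and 83.4 (H7) CPM, and in CIA joints at 47.0 (S1), 64.8 (S3), 33.1 (S5), 15.9 (S6) and 0 (S8). Every CIA mouse lay below every healthy mouse. The log2 fold change was −1.16 ± 0.67 (SE; 3 healthy and 5 CIA mice), with an adjusted p of 0.55, so that it did not pass across all genes. In a two-sided exact permutation test of *Tgfbr3* alone p was 0.0357, where 0.0179 is the smallest that 3 against 5 mice allow.

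Fibroblasts, which held most *Tgfbr3* UMIs, made up 42.2 to 52.8% of the cells in healthy joints and 4.8 to 44.4% in CIA joints. Within fibroblasts the order stayed, with 174, 232 and 155 CPM in H3, H4 and H7 and 88.5, 102 and 92.2 in S1, S3 and S5, the CIA mice with at least 10 fibroblasts. The groups again did not overlap. In fibroblasts the fitted log2 fold change was −1.10 ± 0.46 with an unadjusted p of 0.039 and an adjusted p of 0.26 in edgeR's test, and the two-sided exact permutation p was 0.1, the smallest possible for 3 against 3 mice. In joint fibroblasts 0 of the 9 members and 0.38% of all tested genes were called, and *Tgfbr3* was the 1 member with an unadjusted p under 0.05, as had 6.66% of all tested genes. The *Tgfbr3* locus (chromosome 5, 107106570 to 107289629, minus strand, GRCm38) overlaps the predicted gene *Gm8145* on the opposite strand. *Gm8145* had 263 UMIs, more than the 243 of *Tgfbr3*, and reads of the pair may not be told apart where the counting did not use strand.

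**Figure D2:**
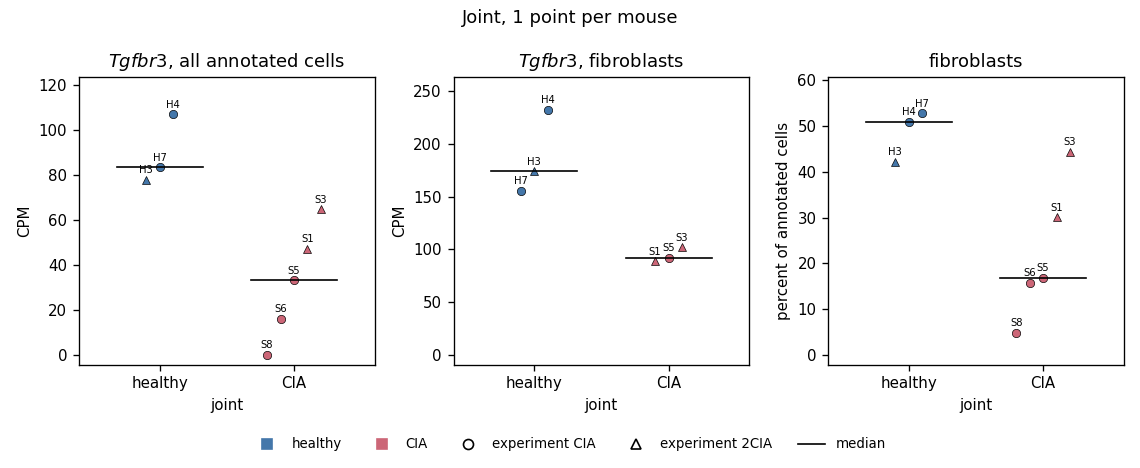
*Tgfbr3* in joint, 1 point per mouse, as CPM of all labelled cells and of fibroblasts, beside the percentage of fibroblasts among the cells; bars mark group medians and the marker shape the experiment. All CIA mice lie below all healthy mice for *Tgfbr3* in both cell sets, and 4 of 5 CIA joints have a lower fibroblast share than the lowest healthy joint at 42.2%.

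*Smad7* had 122, 99.8 and 125 CPM in healthy joints (H3, H4, H7) and 136, 146, 102, 382 and 182 in CIA joints (S1, S3, S5, S6, S8). Except in S5, which lay within the healthy range, the CIA values were higher, with S6 far above the rest. The log2 fold change was 0.72 ± 0.45 with an adjusted p of 0.565, and the two-sided exact permutation p was 0.321.

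*Tgfbi* ranged from 161 to 306 CPM in healthy joints and from 0 (S8) to 557 (S6) in CIA joints, with a log2 fold change of −0.27 ± 0.72 that was 0.01 without S8. In S6, 28 of its 35 UMIs came from 1 fibroblast, in a sample of 57 cells. *Tgfb1* was at 55.7, 64.1 and 41.7 in H3, H4 and H7 and at 57.9, 8.09, 42.5, 143 and 26.0 in S1, S3, S5, S6 and S8. The groups overlapped, and the log2 fold change of *Tgfb1* was 0.14 ± 0.69 (adjusted p = 0.941), with a sign that turned under another scaling of the libraries and without H7 (−0.05) or S6 (−0.08).

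The other joint members overlapped between the groups as well. *Tgfb2* ranged from 11.1 to 69.5 CPM in healthy and from 8.09 to 95.5 in CIA joints, and *Tgfb3* from 0 to 35.6 and from 0 to 31.8. *Tgfbr1* ranged from 22.3 to 69.5 in healthy and from 24.3 to 63.7 in CIA joints. *Ltbp1* ranged from 21.4 to 55.6 in healthy joints and from 0 to 36.0 in CIA joints. *Tgfbr2* had 55.6 to 66.8 in healthy joints, and its CIA values of 59.5, 24.3, 56.9, 47.8 and 0 in S1, S3, S5, S6 and S8 reached lower. Joint S8, at 0 for 5 members, had 4.8% fibroblasts and 54.2% granulocytes among its cells.

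Joint macrophages gave 0 called members, against 0.214% of all tested genes, and 0 members with an unadjusted p under 0.05. *Tgfbi* was their richest member, at 315, 672 and 506 CPM in H3, H4 and H7 and at 341, 276, 364 and 0 in S1, S3, S5 and S8. The CIA values lay within the healthy range in S1 and S5 and below it in S3 and S8. *Smad7* was at 72.6 to 112 in healthy joint macrophages and at 107, 110, 106 and 0 in the same CIA mice.

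**Figure D3:**
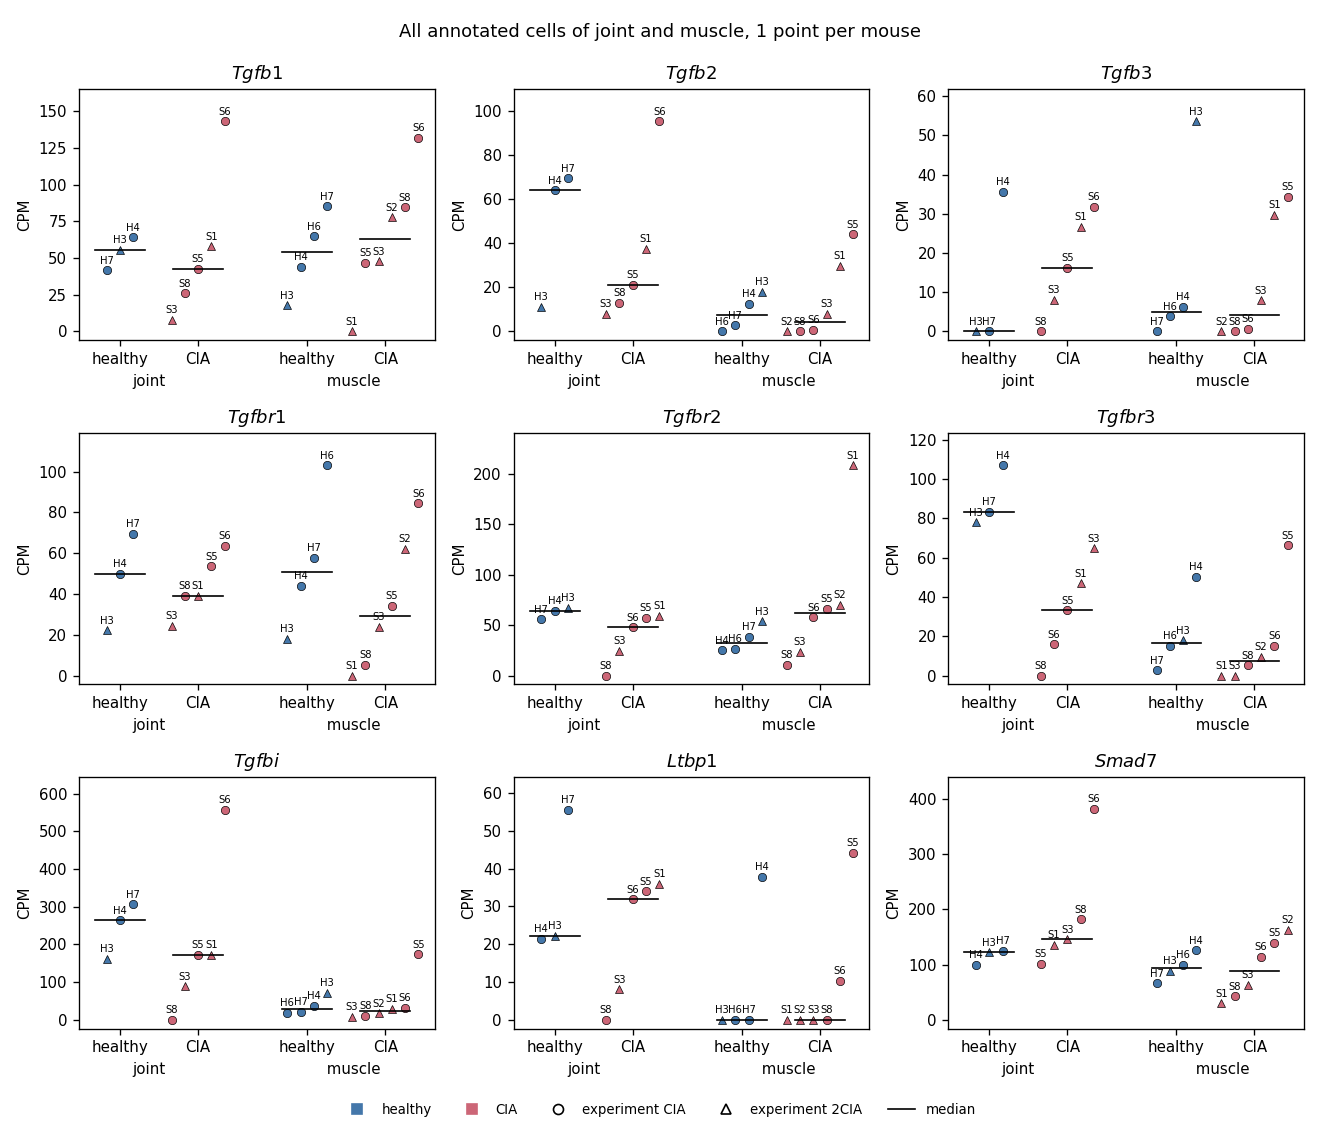
The 9 TGF-beta genes over all labelled cells of joint and muscle, 1 panel per gene and 1 point per mouse, in CPM on a linear axis; bars mark medians, colour the group and marker shape the experiment. The groups separate for *Tgfbr3* in joint, and muscle of S5 stands apart at 174 for *Tgfbi*, 66.2 for *Tgfbr3* and 44.1 for *Ltbp1*.

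The study reported no signs of inflammation in muscle. There, 0 of the 9 members were called over all cells, against 0.159% of all tested genes, and 0 had an unadjusted p under 0.05. The fold changes of 7 of the 9 genes were above 0, with a median of 0.238 on the log2 scale and 0.051 over the filtered genes. *Tgfb1* was at 17.9, 44.1, 64.9 and 85.2 CPM in H3, H4, H6 and H7, and at 0, 77.8, 47.8, 46.6, 132 and 84.6 in S1, S2, S3, S5, S6 and S8. The ranges overlapped widely, with a log2 fold change of 0.15 ± 0.49 that was −0.15 without the cells labelled myocytes, −0.07 without H3 and −0.11 without S6. *Tgfbi* was at 71.5, 37.8, 19.1 and 22.0 in the healthy mice and at 29.7, 17.5, 7.96, 174, 31.0 and 10.6 in the CIA mice. The log2 fold change of *Tgfbi*, 0.69 ± 0.63, was set by S5 and became −0.68 without it.

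The muscle of S5 consisted of fibroblasts to 50.0% (174 of 348 cells), and it had the highest *Tgfbi*, *Tgfbr3*, *Tgfb2*, *Tgfb3* and *Ltbp1* levels of the CIA muscles. Muscle fibroblast shares were 41.4% in H3, 40.0% in S1 and 13.1% in H4, and between 0 and 4.3% in H6, H7, S2, S3, S6 and S8. Red cells had been lysed in the muscle samples of these latter mice, and not in those of H3, H4, S1 and S5. Fibroblast share and red cell lysis therefore cannot be told apart among the muscles. *Tgfbr2* was highest in S1, at 208 CPM, with 10.6 to 70.0 in the other CIA muscles and 25.2 to 53.6 in healthy muscles. *Tgfbr1* ranged from 17.9 to 103 in healthy and from 0 to 84.5 in CIA muscles, *Smad7* from 66.0 to 126 and from 29.7 to 163, and *Tgfb3* from 0 to 53.6 and from 0 to 34.3. No member separated the groups in muscle.

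Within muscle fibroblasts 0 members were called, against 0.0117% of all tested genes, and *Smad7* alone had an unadjusted p under 0.05, as had 3.83% of all tested genes. It had 44.1, 76.5, 0 and 0 CPM in H3, H4, H6 and H7, and 0, 137, 132 and 203 in S1, S2, S5 and S6. These values rest on 2 UMIs in healthy and 48 in CIA mice, a pooled ratio of 4.47 with a 95% exact counting interval from 1.17 to 38.0. The fit gave a log2 fold change of 2.50 ± 1.07 with an adjusted p of 0.666, and the two-sided exact permutation p was 0.143. In muscle macrophages and muscle T cells 0 members were called, against 0.0685% and 0.0997% of all tested genes, and 0 had an unadjusted p under 0.05. Among muscle T cells *Tgfb1* was at 87.1 to 112 CPM in healthy and 42.2 to 105 in CIA mice, and *Smad7* at 98.0 to 213 and 73.9 to 171.

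The question of whether CIA acted differently in joint and muscle was addressed by the organ-by-disease interaction in the 18 joint and muscle samples. Of the 9 members 0 were called, against 0.0684% of all tested genes, and 0 had an unadjusted p under 0.05. The interaction (joint minus muscle, log2 scale) was −0.12 ± 0.84 for *Tgfb1*, −0.88 ± 1.27 for *Tgfbi* and 0.86 ± 0.68 for *Smad7*. These standard errors leave room for sizeable differences in both directions, and the sign turned for *Tgfbi* without S5 (0.61) and for *Tgfb1* without H3, H4, S3 or S8 (0.06 to 0.15). The same test gave 0 called members in fibroblasts and macrophages, against 0.0376% and 0.0613% of all tested genes, and 0 members with an unadjusted p under 0.05.

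Levels were then compared between the organs within each disease group. In healthy mice 7 of the 9 members, and in CIA mice likewise 7, had a higher fitted level in joint than in muscle, with medians of 0.823 and 1.005 on the log2 scale beside 0.020 and −0.023 over the filtered genes. Healthy joint fibroblast markers summed to between 9448 and 16484 CPM and those of healthy muscle to between 393 and 4950. In CIA mice they summed to between 1835 and 15336 in joint and 0 and 11465 in muscle. T cells made up 10.1 to 40.1% of the cells in healthy muscles and 2.2 to 79.8% in CIA muscles. In healthy and CIA joints they made up 6.9 to 8.3% and 6.1 to 24.6%. B cells reached 57.3% in CIA muscles and 1.8% in CIA joints. The part of fibroblasts, T cells and B cells in the difference was not tested over all cells. The organs were digested with different collagenases, which cannot be told apart from the organ. Red cells had also been lysed in only part of the muscle samples.

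*Tgfbi* was compared between joint and muscle in each group. The 3 healthy joints (161, 264 and 306 CPM) all lay above the 4 healthy muscles (71.5, 37.8, 19.1 and 22.0), with a log2 difference of 2.83 ± 1.02, an unadjusted p of 0.0119 and an adjusted p of 0.484. In CIA mice the difference was 1.95 ± 0.76, with an unadjusted p of 0.0181 and an adjusted p of 0.161. S5 had nearly equal levels, 172 in joint and 174 in muscle, S8 had 0 in joint and 10.6 in muscle, and S1, S3 and S6 had more in joint. Both differences passed when *Tgfbi* was tested among every gene with at least 1 UMI (2.68, adjusted p = 0.0345 in healthy mice and 1.81, adjusted p = 0.0263 in CIA mice). Without S5 the difference in CIA mice was 3.46 with an adjusted p of 0.0056, and *Tgfb2* was then called too (3.97, adjusted p = 0.0028). The *Tgfbi* call in CIA mice thus depended on the filter and on S5, and that of *Tgfb2* on S5.

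*Tgfb2* was at 11.1, 64.1 and 69.5 CPM in healthy joints and at 17.9, 12.6, 0 and 2.75 in healthy muscles, with a log2 difference of 2.86 ± 1.52 (unadjusted p = 0.0743). In CIA mice the difference of *Tgfb2* was 1.46 ± 1.08. *Smad7* differed by 0.15 ± 0.53 in healthy mice (−0.11 without H7) and by 1.01 ± 0.41 in CIA mice (unadjusted p = 0.0213, adjusted p = 0.178). For *Tgfb1* no difference was detectable, at −0.15 ± 0.67 in healthy mice (0.19 without H7) and −0.27 ± 0.51 in CIA mice. Of the 9 members 0 were called in healthy mice and 0 in CIA mice, against 0.137% and 2.05% of all tested genes, and 1 and 2 members had an unadjusted p under 0.05, beside 6.81% and 11.7% of all tested genes.

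Macrophages were compared between the organs as well. All 5 fibroblast markers had UMIs in cells labelled macrophages, summing to 398 CPM over all organs, and their part in this comparison was not tested. For *Tgfbi* in macrophages of healthy mice, the joint values of 315, 672 and 506 CPM lay above the muscle values of 0 (H4), 95.5 (H6) and 30.2 (H7). With 30 UMIs in joint and 3 in muscle, the pooled ratio was 9.44 (95% exact counting interval 2.94 to 48.3). The log2 difference was 3.13 ± 1.00 with an unadjusted p of 0.00172 and an adjusted p of 0.754. In CIA mice joint macrophages had 341, 276, 364 and 0 (S1, S3, S5, S8) and muscle macrophages 118, 79.6, 252 and 63.1 (S2, S3, S5, S6), a log2 difference of 1.34 ± 0.67 (unadjusted p = 0.0439, adjusted p = 0.651). The joint of S8 lay below all CIA muscles, and the other 3 CIA joints above them. In healthy and CIA macrophages 0 members were called, against 0.0725% and 0.151% of all tested genes, and 2 and 1 had an unadjusted p under 0.05, beside 3.42% and 4.61% of all tested genes.

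In fibroblasts the 2 organs overlapped for *Tgfbi*. Healthy joint fibroblasts had 222, 325 and 336 CPM and healthy muscle fibroblasts 88.2, 383, 197 and 287, and in CIA mice the values were 233, 58.3 and 411 in joint and 82.7, 68.7, 214 and 254 in muscle. In healthy and CIA fibroblasts 0 members were called, against 0.047% and 0.568% of all tested genes, and 2 members, *Tgfb2* and *Smad7*, had an unadjusted p under 0.05 in healthy mice and 0 in CIA mice, beside 3.72% and 7.71% of all tested genes.

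**Figure D4:**
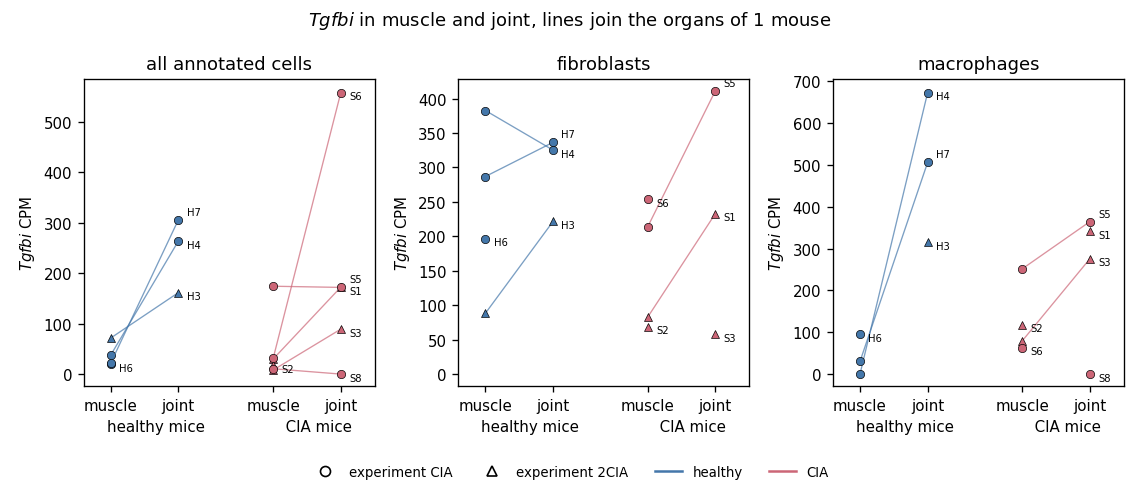
*Tgfbi* in joint and muscle, as CPM of all labelled cells, of fibroblasts and of macrophages, with lines that join the organs of 1 mouse. Healthy joints (161 to 306) lie above healthy muscles (19.1 to 71.5) over all cells, the same holds in healthy macrophages, and the organs overlap in fibroblasts.

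In spleen *Tgfbi* rose in CIA, and this was the only member called by edgeR in a comparison of CIA with healthy mice. Over all spleen cells it was at 0, 7.30, 10.5 and 6.85 CPM in H3, H4, H6 and H7, and at 63.0, 67.3, 27.9, 10.6, 22.4 and 9.92 in S1, S2, S3, S5, S6 and S8. The groups met only at S8, which lay below H6. The log2 fold change was 2.65 ± 0.74 with an adjusted p of 0.0435, on 5 UMIs in healthy and 93 in CIA mice, and the two-sided exact permutation p was 0.0667. *Tgfbi* had not passed the filter, so the call comes from the fit with every gene of at least 1 UMI. That was 1 of 7 members tested, where 0.474% of all tested genes were called and 0.217% were called higher.

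In the cells labelled monocytes *Tgfbi* was at 0, 10.6, 38.7 and 0 CPM in H3, H4, H6 and H7, and at 277, 257, 128, 38.6, 70.1 and 58.2 in S1, S2, S3, S5, S6 and S8. S5 lay just below the highest healthy mouse, H6, and the other 5 CIA mice lay above all healthy mice. With 2 UMIs in healthy and 67 in CIA monocytes, the pooled ratio was 15.4 (95% exact counting interval 4.11 to 130), and at most 3 UMIs came from 1 cell. A log2 fold change of 3.37 ± 0.90 was fitted with an adjusted p of 0.0379, and the two-sided exact permutation p was 0.0476. In spleen monocytes 1 member was called, against 0.521% of all tested genes and 0.222% called higher, again from the unfiltered fit, since 0 members passed the filter.

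The 3 mice of the experiment 2CIA, which are also the mice with the score of 8, had the highest *Tgfbi* levels in both spleen comparisons, and their experiment has a single healthy mouse, H3. Among the mice of the experiment CIA alone the log2 fold change was 0.72 over all cells and 1.43 in monocytes, and neither passed. With the experiment as a term in the fit it was 1.62 and 2.42, again without a call. DESeq2 gave 2.60 and 3.23 with no call in either comparison, and over all cells the call was lost without the monocytes (1.67). Leaving out any 1 of H3, H4, H6, H7, S1 or S2 ended both calls, with log2 fold changes from 2.11 to 2.90 over all cells and from 2.73 to 3.95 in monocytes.

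Other markers moved in the same spleen monocytes. The summed level of the 4 monocyte markers *Ly6c2*, *Ccr2*, *Plac8* and *Vcan* ranged from 1156 to 1701 CPM in healthy and from 3107 to 6103 in CIA mice. *Vcan* was at 0 in healthy mice, and the other 3 were detected in both groups. The 5 granulocyte and neutrophil markers summed to between 618 and 1061 in healthy and between 2630 and 23042 in CIA mice, with *Csf3r* and *Ly6g* at 0 in healthy mice. Their part in the *Tgfbi* difference was not tested. All 5 fibroblast markers, *Col1a1* among them, were at 0 in these cells in both groups.

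The other spleen members did not separate the groups. *Tgfb1* ranged from 42.0 to 77.8 CPM in healthy and from 7.47 to 65.7 in CIA spleens, *Tgfbr1* from 8.98 to 26.8 and from 14.9 to 46.1, *Tgfbr2* from 21.0 to 48.6 and from 14.9 to 37.2, and *Smad7* from 58.4 to 171 and from 7.47 to 149. Spleen B cells and NK cells had 0 called members, against 0.0554% and 0.0648% of all tested genes, and 0 with an unadjusted p under 0.05. In spleen B cells *Tgfb1* was at 24.3 to 90.3 in healthy and 17.9 to 78.6 in CIA mice.

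In lung, *Tgfbi* was again the member that stood higher in CIA, though without passing. Over all cells it was at 0, 31.7, 51.6 and 29.2 CPM in H3, H4, H6 and H7 and at 78.7, 143, 202, 54.7, 22.6 and 169 in S1, S2, S3, S5, S6 and S8. Only S6 lay within the healthy range. Its log2 fold change was 1.63 ± 0.73 (unadjusted p = 0.0265, adjusted p = 0.583), with a two-sided exact permutation p of 0.0619. In lung 0 of the 9 members were called, against 0.514% of all tested genes, and *Tgfbi* was the 1 member with an unadjusted p under 0.05, as had 6.29% of all tested genes.

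In lung macrophages, which held most lung cells, *Tgfbi* was at 0, 28.9, 29.8 and 32.6 CPM in healthy mice and at 91.5, 145, 263, 69.3, 28.1 and 174 in S1, S2, S3, S5, S6 and S8, on 5 and 28 UMIs. S6 lay within the healthy range and the other 5 CIA mice above it. Here the log2 fold change was 1.95 ± 0.76 (unadjusted p = 0.0106, adjusted p = 0.586), with a two-sided exact permutation p of 0.0476, and 0 members were called, against 0.314% of all tested genes. The 4 monocyte markers in these macrophages summed to between 115 and 448 in healthy and between 1213 and 2894 in CIA mice, with *Vcan* at 0 in healthy mice. The granulocyte and neutrophil markers summed to between 366 and 602 in healthy and between 638 and 14815 in CIA mice, and the macrophage markers to between 516 and 1492 and between 378 and 1218. The part of these cells in the *Tgfbi* difference was not tested.

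**Figure D5:**
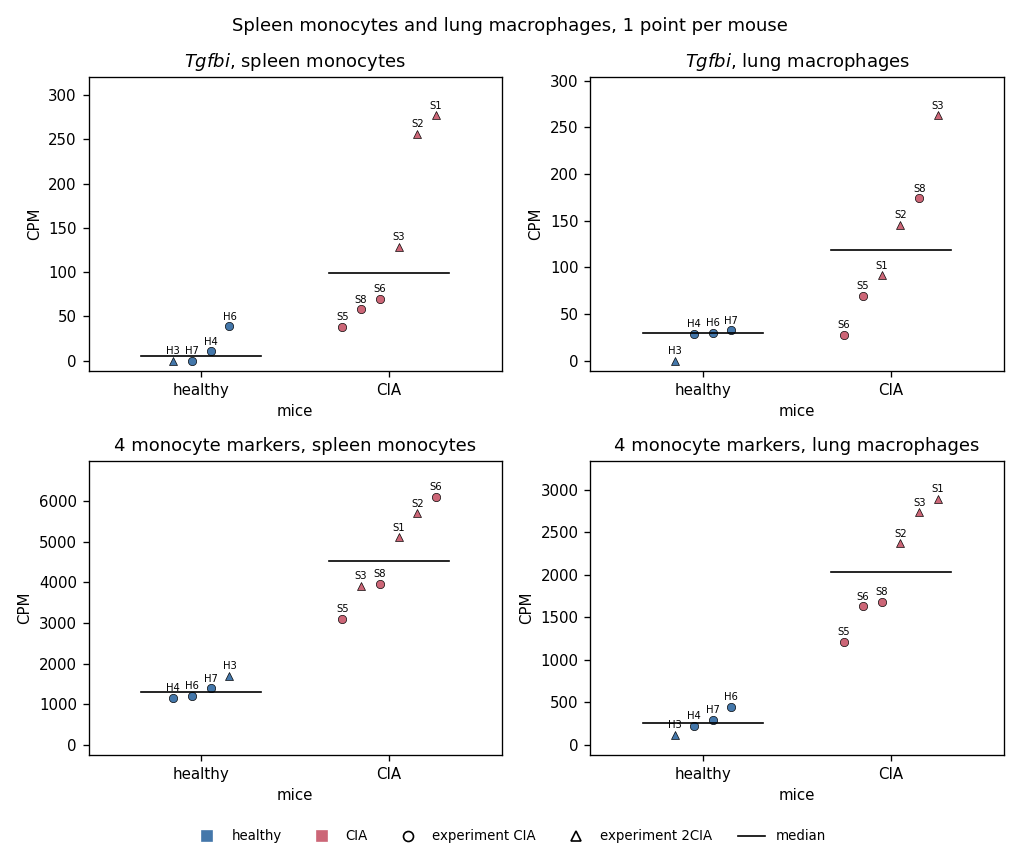
*Tgfbi* in spleen monocytes and lung macrophages, 1 point per mouse in CPM, with the summed level of the 4 monocyte markers in the same cells in the lower panels; bars mark medians and marker shape the experiment. Spleen monocytes of CIA mice range from 38.6 to 277 for *Tgfbi* and healthy ones from 0 to 38.7, and the monocyte markers do not overlap between the groups in either organ.

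*Tgfbr1* and *Smad7* had more lung UMIs than *Tgfbi*, and neither was called. *Tgfbr1* was at 97.7 to 250 CPM in healthy and 52.6 to 232 in CIA lung macrophages. *Tgfb1* over all lung cells was at 29.2 to 103 in healthy mice, and at 0 in S2 and S5 and 29.5 to 121 in the other CIA mice. *Tgfb2*, *Tgfb3*, *Tgfbr3* and *Ltbp1* had between 1 and 5 UMIs each in lung, too few for a comparison.

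In skin, 0 of the 9 members were called over all cells, against 0.0901% of all tested genes, and *Ltbp1* alone had an unadjusted p under 0.05, as had 5.54% of all tested genes. *Ltbp1*, which tethers the latent ligand, was at 13.6, 108, 46.9 and 33.2 CPM in H3, H4, H6 and H7, and at 32.9, 12.6, 0, 14.0, 0 and 32.4 in S1, S2, S3, S5, S6 and S8. The CIA mice all lay below the 3 higher healthy mice, and H3 lay among them. On the log2 scale the fold change was −1.39 ± 0.66 (unadjusted p = 0.0335, adjusted p = 0.693), with a two-sided exact permutation p of 0.0476, on 18 and 12 UMIs. The overlap of *Ltbp1* with *Gm6276* applies to these counts too. Skin basal III cells and fibroblasts had 0 called members, against 0.0545% and 0.0766% of all tested genes, and 0 with an unadjusted p under 0.05.

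*Smad7* in skin fibroblasts was at 149 to 310 CPM in healthy and 169 to 445 in CIA mice. *Tgfb2* in skin basal III cells had 43.5, 0, 10.1 and 0 in the healthy mice and 41.5, 23.3, 19.5, 57.5, 54.1 and 15.4 in S1, S2, S3, S5, S6 and S8. The 3 CIA values at or below 23.3 lay within the healthy range, as did that of S1.

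Beyond the 9 members, 43 other genes of the pathway were read from the same fits, namely 12 of latency and activation, 5 receptors and co-receptors, 12 signal transducers and their regulators, and 14 response genes. In joint and in muscle over all cells, 0 of the 43 were called, with medians of 0.27 and −0.29 on the log2 scale among the 22 and 17 that passed the filter. In joint fibroblasts 2 of the 42 tested were called, both higher in CIA and both response genes, against 0.38% of all tested genes, and 0 were lower. Both had passed the filter on low counts, as had 15 of the 42 and 1014 of all genes, of which 17 were called. The median log2 fold change was 0.35 over these 15 genes and 0.14 over the 10 response genes among them, beside 0.063 over the filtered genes. No gene of the other 3 classes was called there.

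*Postn* encodes periostin, a matrix protein of activated fibroblasts, and stood at 47.5, 31.0 and 51.8 CPM in healthy joint fibroblasts (H3, H4, H7) and at 960, 379 and 1486 in those of S1, S3 and S5. *Timp1*, an inhibitor of matrix metalloproteinases, was at 158, 232 and 311 in the same healthy mice and at 988, 3482 and 1025 in the same CIA mice. Neither gene overlapped between the groups. The log2 fold changes were 4.39 ± 0.62 for *Postn* (adjusted p = 0.0276) and 2.91 ± 0.61 for *Timp1* (adjusted p = 0.0495).

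Leaving out H3, H4 or H7 left 2 healthy mice and ended both calls, with log2 fold changes from 4.27 to 4.47 for *Postn* and from 2.64 to 3.08 for *Timp1*. *Timp1* was lost in 5 further alternatives, with the experiment as a term among them (2.87).

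In skin both genes were called over all cells and in fibroblasts, and *Postn* also in basal III cells, though in fits in which neither had passed the filter, where 0.0901%, 0.0766% and 0.0545% of all tested genes were called. *Postn* in skin fibroblasts was at 106, 0, 149 and 52.9 CPM in H3, H4, H6 and H7 and at 395, 706, 946, 55.6 and 127 in S1, S2, S3, S5 and S8 (log2 fold change 2.59 ± 0.59, adjusted p = 0.0193). S5 and S8 lay within the healthy range. *Timp1* in skin fibroblasts had 1 UMI in healthy mice and 159 in CIA mice, at 296, 1893 and 263 in S1, S2 and S3 and at 0 in S5 and S8. The pooled ratio was 108 with a 95% exact counting interval from 19.1 to 4285. Thus in skin fibroblasts the highest values of both genes came from the mice of the experiment 2CIA, and among the mice of the experiment CIA alone the log2 fold change was 0.05 for *Postn* and −1.76 for *Timp1*. Over all skin cells S6, of the experiment CIA, had the second highest *Timp1* level (371, on 10 UMIs). No skin call stood in DESeq2 or with the experiment as a term. In fibroblasts the *Timp1* call was lost without S2 (3.63) and the *Postn* call without H3, H4, H7, S2 or S3 (2.09 to 2.56). Over all cells *Timp1* was lost without H3, H4, H6, H7 or S2 (2.81 to 5.31) and *Postn* without H3, H4, H6 or H7 (2.41 to 3.24), and in basal III cells *Postn* was lost without S2 (2.76).

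In spleen 1 of the 34 tested genes was called over all cells, against 0.474% of all tested genes. It was *Id1*, a helix-loop-helix inhibitor that responds to signals of the TGF-beta superfamily, which had not passed the filter there or in monocytes. It was at 0, 12.2, 21.0 and 13.7 CPM in H3, H4, H6 and H7 and at 63.0, 82.3, 37.2, 14.2, 14.9 and 64.5 in S1, S2, S3, S5, S6 and S8 (log2 fold change 2.23 ± 0.63, adjusted p = 0.0497). S5 and S6 lay within the healthy range. In spleen monocytes *Id1* was at 0 in all 4 healthy mice and at 139, 125, 0, 19.3, 0 and 175 in the CIA mice in the same order (adjusted p = 0.0359), at least 5.53-fold higher over the pooled cells when the healthy monocytes are set to 3 UMIs over the group. Both *Id1* calls were lost without H3, H4, H6, H7, S1, S2 or S8 (1.78 to 2.36 over all cells and 4.46 to 5.25 in monocytes). DESeq2 did not call *Id1* over all cells (2.15) and gave no adjusted p in monocytes. *Id2* and *Id3* were not called in either comparison.

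Between joint and muscle of CIA mice, 5 of the 43 genes were called over all cells, all higher in joint, where 2.05% of all tested genes were called. The filter on low counts was passed by 25 of the 43, *Timp1*, *Ctgf* and *Postn* among them, and by 4241 of the 27780 genes tested. Of those 4241 genes 203 were called, so the 2.05% is not a like background for this list. In healthy mice 0 of the 43 were called, where the share of all genes was 0.137%, and the difference between the groups in these counts was not tested. *Ctgf*, a matricellular response gene, was at 437, 113, 173, 175 and 0 CPM in the joints of S1, S3, S5, S6 and S8 and at 59.5, 15.6, 0, 53.9, 14.6 and 0 in the muscles of S1, S2, S3, S5, S6 and S8 (log2 difference 3.29 ± 0.78, adjusted p = 0.0173). All joints except that of S8 lay above all muscles, and the call was lost without S1 (2.69). *Timp1* (4.40 ± 0.99, adjusted p = 0.0156) and *Postn* (3.93 ± 1.03, adjusted p = 0.0296) were the other response genes, and these calls were lost without S3 (3.26) for *Timp1*, and without S2, S3 or S6 (3.38 to 3.71) and in DESeq2 (2.84) for *Postn*. *Ltbp3* and *Ltbp2*, relatives of *Ltbp1* in latency, were called as well, with 70 and 21 UMIs in joint and 8 and 2 in muscle. With the mouse as a block neither call stood (2.90 and 3.42). DESeq2 did not call *Ltbp3* (3.25) and gave no adjusted p for *Ltbp2*, whose call was also lost without S1, S2 or S3 (3.51 to 3.70).

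In CIA fibroblasts 3 of the 43 genes were called between the organs, against 0.568% of all tested genes. The filter was passed by 17 of the 43, *Timp1* and *Itgb1* among them, and by 1284 of all genes, of which 59 were called. *Timp1* was higher in joint (3.97 ± 0.63, adjusted p = 0.0014), and its call stood in every alternative run. *Itgb1*, an integrin subunit, was at 494, 379 and 461 CPM in joint fibroblasts of S1, S3 and S5 and at 165, 137, 188 and 122 in muscle fibroblasts of S1, S2, S5 and S6, without overlap. Its log2 difference was 1.59 ± 0.40 (adjusted p = 0.0277), and the call was lost without S1, S2, S5 or S6 (1.40 to 1.80) and with the mouse as a block (1.48). *Nrros*, which tethers latent TGF-beta in myeloid cells, had 0 UMIs in joint and 13 in muscle fibroblasts, all from S5 and S6, and its call was lost with the mouse as a block (−3.47) and without H3, H7, S1, S5 or S6 (−4.72 to −3.41). For *Thbs1*, an activator of latent TGF-beta, the interaction in macrophages was called, with 0.0613% of all tested genes (adjusted p = 0.0188) but not with the mouse as a block, on 17 UMIs in CIA joint macrophages, 7 in those of healthy muscle, all from H7, and 0 in both other groups. Without H7 its adjusted p was 1.0, and the call was lost without H3, S2 or S6 too. In the comparisons not named here, 0 of the 43 genes were called.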

How the data were processed

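Single-cell RNA of 48 samples from 10 mice was counted with Seq-Well. Per the study's methods, the authors aligned reads to GRCm38 with STAR, counted with the Drop-seq tools, and filtered cells on reads, transcripts, genes and mitochondrial share; they deposited UMI counts without normalization, with cell-type labels made from denoised counts. Counts were used as deposited for 12096 labelled cells, no doublet caller was run here (the authors dropped cells with very many transcripts as possible duplicates), and 0 per-sample columns were left unused. UMIs were summed per mouse over an organ, or over a cell type with at least 10 cells in at least 3 healthy and 3 CIA mice. Sums entered edgeR 4.0.16's quasi-likelihood test (R 4.3.3; TMM factors, filterByExpr), and p-values were adjusted by Benjamini-Hochberg at 0.05. A gene that failed the filter took its values from a fit of all genes that had 1 UMI or more, and the percentages of genes called use the same rule. Fitted fold changes are given for members with at least 10 UMIs. The fit with the filter was tested on simulated data, and the fit of all genes was not. Levels are CPM, the UMIs per 1000000 UMIs of the same cells, which keep the depth of each sum. For single members, the mice of both groups were also exchanged in exact permutation tests, two-sided. DESeq2 1.42.0, other scalings, batch terms, cell subsets and leaving out each mouse were alternatives, and 2 were added after the data were seen (robust dispersions, spleen without monocytes). Joint and muscle of 1 mouse come from the same animal by its label. The deviations of the 2 organs from their group means correlated between −0.164 and 0.238 over all cells, and blocking on the mouse was among the alternatives. Intervals and floors cover counting error only. Coordinates are from GENCODE vM21 (GRCm38). Every member was named, and of the pathway list every gene called (at most 5 per comparison); the members and lists were chosen with earlier results of these data known. Figures were drawn with matplotlib 3.10.9.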

Additional observations from a re-analysis of the deposited data

Results flagged for a closer look

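In each group of 4 to 6 mice, the highest or lowest mouse was checked for standing apart from the others by Dixon's ratio. Of 115 groups, 12 had such a mouse, all of them CIA groups. The cutoff stands for about 1 in 20 by chance if values are normal, which levels from few UMIs need not be. It was stricter in groups of 4 than in groups of 6, and no healthy group had more than 4 mice. Healthy joints, with 3 mice, were not tested, and sums over all cells share UMIs with their cell types. The count therefore shows neither an excess over chance nor a difference between CIA and healthy mice. No explanation was tested for the 12 flags.

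*Smad7* was at 382.2 CPM in the joint of S6, above the next mouse at 182.2, and at 0 in joint macrophages of S8, below 106.3 in the next. In the muscle of S5, *Tgfbi* was at 174.0 (next 31.0), *Tgfbr3* at 66.2 (next 15.2) and *Ltbp1* at 44.1 (next 10.3), and *Tgfb2* in its muscle fibroblasts was at 56.0 with 0 in the other CIA mice. *Tgfbr2* was at 208.2 in the muscle of S1 (next 70.0), on 7 UMIs.

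In lung *Smad7* was at 203.6 CPM over all cells of S6 (next 85.8) and at 252.7 in its macrophages (next 96.8), on the same 9 UMIs. In skin *Tgfbr1* was at 117.3 over all cells of S3 (next 54.0) and at 210.2 in its fibroblasts (next 74.0), and *Tgfbr2* at 216.4 in basal III cells of S6 (next 61.5), on 4 UMIs.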

How the results depend on the processing

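The count of called members was 1 in spleen over all cells and 0 there with DESeq2, RLE factors, plain library size, robust dispersions, the experiment as a term, the experiment CIA alone, or without monocytes. In spleen monocytes it was 1, and 0 with DESeq2, robust dispersions, the experiment as a term or the experiment CIA alone. Leaving out 1 mouse gave 0 to 1 in both, and 0 to 2 for joint against muscle in CIA mice. With every gene of at least 1 UMI tested, 1 member was called between joint and muscle in healthy and 1 in CIA mice (*Tgfbi*, log2 difference 2.68 and 1.81). All other counts of called members stayed at 0.

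The log2 fold change of *Tgfbi* in spleen over all cells was 2.60 with DESeq2, 2.55 with RLE factors, 2.43 with plain library size, 2.65 with robust dispersions, 1.62 with the experiment as a term, 0.72 in the experiment CIA alone and 1.67 without monocytes, none of them past the threshold, and the mean difference of 27.4 CPM did not pass the exact permutation test. Over all alternatives, single mice left out included, its adjusted p ran from 0.02 to 0.86. In monocytes it was 3.23 with DESeq2, 3.37 with robust dispersions, 2.42 with the experiment as a term and 1.43 in the experiment CIA alone. Leaving out 1 mouse gave 2.11 to 2.90 and 2.73 to 3.95. The cause of these losses was not tested.

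The sign of *Tgfb1* turned in joint with DESeq2 (−0.030), RLE factors (−0.038) and plain library size (−0.10) and over single mice left out (−0.083 to 0.37), in muscle without cells labelled myocytes (−0.15; −0.11 to 0.40 over mice), in the interaction without them (0.18; −0.55 to 0.15), and between joint and muscle in CIA mice without them (0.017) and in healthy mice with the mouse as a replicate block (0.080; −0.51 to 0.19). Leaving out 1 mouse gave −0.84 to 0.013 for *Tgfbi* in joint, −0.68 to 0.90 in muscle and −1.53 to 0.61 in the interaction, −0.11 to 0.40 for *Smad7* between healthy joint and muscle, and 2.41 to 3.33 and 1.25 to 3.46 for *Tgfbi* between joint and muscle in healthy and CIA mice. *Timp1* in skin fibroblasts was −1.76 in the experiment CIA alone.

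The replicate block of the mouse changed no other sign and no call of a member, and it took the number of genes called from 570 to 89 between joint and muscle in CIA mice, from 38 to 4 in healthy mice and from 19 to 1 in the interaction, but from 8 to 78 in the fibroblast interaction. Over all alternatives the number of genes called ran from 10 to 66 in joint (31 in the main test), from 10 to 105 in muscle (40), from 16 to 99 in lung (92), from 4 to 32 in skin (19) and from 38 to 172 in spleen (109), from 13 to 101 in joint fibroblasts (73), and from 42 to 111 in spleen monocytes (87). Few UMIs per member limit the depth, above all in lung.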

Other observations

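The cells without a deposited cell type, 1144 of 13240, held 226 UMIs of the 9 genes and entered no comparison. In joint, 7 of their *Tgfbi* UMIs came from CIA mice (152 cells) and 0 from healthy mice (27 cells), and in muscle 14 came from CIA mice (221 cells) and 0 from healthy mice (84 cells). In lung it was 1 against 0 and in skin 3 against 0. Spleen went the other way, with 1 from CIA mice (239 cells) and 2 from healthy mice (157 cells). These counts are pooled over mice, and no test was run on them.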
